A study of Homo sapiens with 7 samples.

Results

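The metallothionein genes were followed in H9 cells, an established line of human embryonic stem cells, that had been transfected with guide RNA plasmids named DJL1 or with a control named CTRL. The family was taken as the 9 rows of the count table with the symbols MT1A, MT1E, MT1F, MT1G, MT1H, MT1M, MT1X, MT2A and MT3, out of 59251 rows in all, and all 9 passed the filter on low counts. The cells were held in RSeT, a medium for the naive state, and both groups were transfected in the presence of 10 nM DZNep, an inhibitor of histone methylation, and 5 nM TSA, an inhibitor of histone deacetylases. Both also had the survival cocktail CEPT for the initial 16 h, and both were harvested 48 h after transfection. Every value below is thus from cells that had been exposed to these compounds. Poly(A) RNA was sequenced from 4 CTRL and 3 DJL1 libraries. The series title concerns LINE1 elements beside the ribosomal DNA, at its distal junctions, and their part in the nucleolus. Neither the protein that the guides direct nor what the CTRL cells received instead is given in the sources used here. No label says that replicates were separate cultures, and p-values then cover only the spread among these libraries, part or all of which may be technical.

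Metallothioneins are small proteins, rich in cysteine, that bind zinc, copper and cadmium through sulfur and hold a store of zinc in the cell. Their genes are switched on by metals through the zinc-sensing transcription factor MTF1, which binds short metal response elements in their promoters, and many also respond to glucocorticoids and oxidative stress. MT2A and the MT1 genes are expressed in many tissues, whereas MT3 is best known from the brain. The mRNAs of 8 of the 9 genes were lower in DJL1 cells, at 54.2% (MT1M) to 85.2% (MT2A) of the CTRL level by the fitted fold changes. MT3, the least abundant, was the 1 member with a higher mean.

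All 9 members lie in 1 cluster on the long arm of chromosome 16 (RefSeq, GRCh38.p14), from MT3 (chr16:56589528-56591085) and MT2A (chr16:56608584-56609497) to MT1X (chr16:56682470-56684196), and all but MT1G are on the plus strand. By the GENCODE 29 transcripts MT2A and the 7 MT1 members each code for 61 residues with 20 cysteine codons. Coding identity was 88.7 to 95.2% between any 2 of these 8. The coding sequences of MT2A and MT1H are printed to show how alike the copies are whose mRNAs were lower, with cysteine codons in capitals.
MT2A: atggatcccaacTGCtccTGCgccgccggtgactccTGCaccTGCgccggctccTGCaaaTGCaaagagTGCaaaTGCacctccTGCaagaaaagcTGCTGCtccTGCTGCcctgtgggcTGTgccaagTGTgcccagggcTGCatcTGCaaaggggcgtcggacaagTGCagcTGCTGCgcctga
MT1H: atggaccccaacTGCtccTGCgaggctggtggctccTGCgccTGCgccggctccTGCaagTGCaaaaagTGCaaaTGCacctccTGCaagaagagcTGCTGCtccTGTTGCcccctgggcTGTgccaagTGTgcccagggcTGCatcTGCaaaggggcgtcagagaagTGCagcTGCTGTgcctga

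The RefSeq promoter table (GRCh38.p14) matched 3 of the 9 members, MT2A, MT1H and MT1X. Their 250 bases upstream of the start are printed because MT2A and MT1H stand near opposite ends of the range of change among the well-measured members and MT1X between them. Capitals mark the core of the metal response element, TGCACNC or TGCGCNC, on either strand.
MT2A, chr16:56608334-56608583, plus strand: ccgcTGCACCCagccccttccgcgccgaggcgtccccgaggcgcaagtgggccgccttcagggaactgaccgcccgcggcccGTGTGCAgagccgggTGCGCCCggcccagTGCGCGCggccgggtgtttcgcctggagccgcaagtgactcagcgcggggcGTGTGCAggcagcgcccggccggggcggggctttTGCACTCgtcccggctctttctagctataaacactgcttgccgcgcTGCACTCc
MT1H, chr16:56669564-56669813, plus strand: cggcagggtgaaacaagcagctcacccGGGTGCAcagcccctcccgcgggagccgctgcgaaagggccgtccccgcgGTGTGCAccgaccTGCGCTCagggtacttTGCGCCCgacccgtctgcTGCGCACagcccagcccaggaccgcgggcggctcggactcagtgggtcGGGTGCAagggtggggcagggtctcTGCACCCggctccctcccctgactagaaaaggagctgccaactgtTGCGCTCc
MT1X, chr16:56682220-56682469, plus strand: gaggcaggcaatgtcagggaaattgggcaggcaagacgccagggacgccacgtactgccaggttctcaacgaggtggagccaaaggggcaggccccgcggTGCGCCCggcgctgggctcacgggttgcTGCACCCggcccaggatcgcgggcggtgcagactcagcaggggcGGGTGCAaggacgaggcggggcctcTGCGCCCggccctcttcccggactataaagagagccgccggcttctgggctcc

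MT1H held 8 such cores, MT2A held 7 and MT1X held 4. Of all 35116 RefSeq promoters cut to the same length, 24.8% held at least 1 core and 42 (0.12%) held at least 5. A TATA box (TATAAA, either strand) was found in the windows of MT2A and MT1X and not in that of MT1H, and 10.7% of all promoters held one. The GC box GGGCGG occurred 2 times each upstream of MT2A and MT1X and 1 time upstream of MT1H, with 1 overlap between a GC box and a metal response core in MT1X, and 42.6% of all promoters held at least 1. The antioxidant response core TGACNNNGC occurred 1 time each in MT2A and MT1X (10.9% of promoters). These matches describe letters in the windows only.

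Levels are CPM, that is counts per 1000000 of a library's total after scaling with TMM factors, as mean ± SD with n = 4 for CTRL and n = 3 for DJL1, and each difference is a log2 fold change of DJL1 against CTRL with its standard error. The test is the 2-sided quasi-likelihood F test of edgeR, its p-values adjusted by Benjamini-Hochberg over the 26062 genes that passed the filter, and a gene is called lower or higher at an adjusted p under 0.05. Total counts were 62277489 to 76691997 in CTRL and 34634882 to 37795742 in DJL1 libraries, so depth separated the groups. The 9 members together held 30315 to 40107 counts in a CTRL library and 12346 to 14098 in a DJL1 library. By this test 8 of the 9 members were called lower, where 25.1% of all tested genes were, and 0 were called higher, where 27.0% of all tested genes were. At an unadjusted p under 0.05, 1 member was higher, by DESeq2 0 and by limma-voom 1. The same 8 members had every DJL1 library below every CTRL library, as had 26.2% of all tested genes. Their DJL1 libraries are the shallower ones, and the part of depth in these results was not tested beyond the thinned counts, in which 8 members were again lower. The median log2 fold change was -0.58 over the 9 members and 0.01 over all tested genes. In bulk RNA a smaller number of cells making a transcript and less of it in each cell cannot be told apart.

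**Figure D1:**
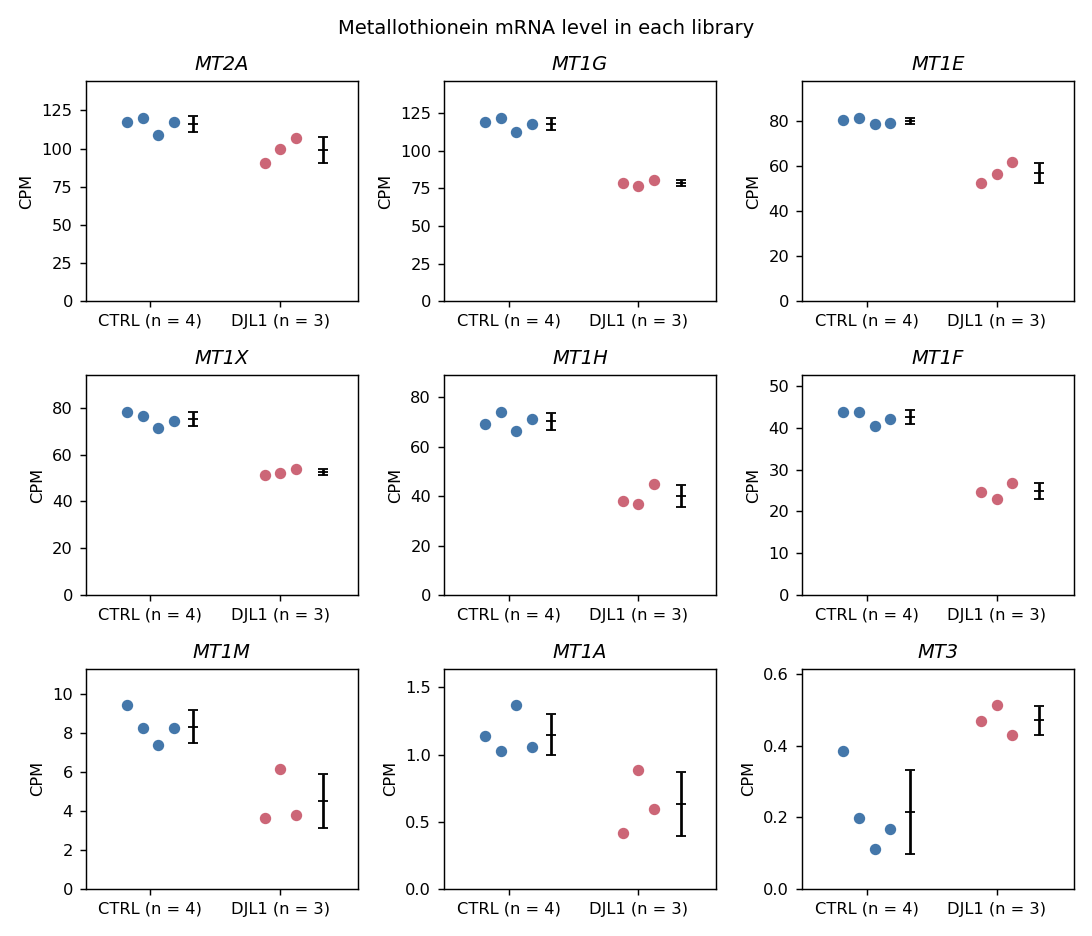
Level of each metallothionein mRNA in CPM (linear axes from 0, a separate scale in each panel) in 4 CTRL and 3 DJL1 libraries, with points for libraries and bars for mean ± SD. In every panel but that of MT3 the DJL1 points lie below all CTRL points, with a narrow gap in MT2A (107 against 108.9 CPM), and in MT3 they lie above.

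MT2A, the most widely expressed metallothionein in human tissues, was at 117.6, 120.2, 108.9 and 117.7 CPM in the CTRL libraries and at 90.4, 99.5 and 107.0 CPM in the DJL1 libraries. The groups did not overlap, but DJL1 replicate 3 came close to the lowest CTRL library, replicate 3. Its mean went from 116.1 ± 4.94 to 98.98 ± 8.35 CPM, a log2 fold change of -0.23 ± 0.054 (adjusted p = 0.00207), the smallest of the 8 called. MT1G was at 118.7, 121.8, 112.6 and 117.8 CPM in CTRL and at 78.3, 76.7 and 80.7 CPM in DJL1. The 7 MT1G values fell into 2 tight sets with a wide gap. The log2 fold change was -0.58 ± 0.042 (adjusted p = 2.25e-08), which left 66.8% of the CTRL level. MT1G and MT2A, nearly equal in CTRL cells and the most alike pair in coding sequence (95.2%), were apart in DJL1 cells.

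MT1E was at 80.6, 81.5, 78.9 and 79.2 CPM in CTRL and at 52.7, 56.3 and 61.9 CPM in DJL1. Its CTRL libraries were the closest of any member (coefficient of variation 1.55%), and its DJL1 libraries were spread more widely (8.13%). The log2 fold change was -0.49 ± 0.051 (adjusted p = 1.06e-06). MT1X, an MT1 gene at the far end of the cluster from MT2A, was at 78.4, 76.5, 71.5 and 74.3 CPM in CTRL and at 51.4, 52.2 and 53.9 CPM in DJL1. Both groups were narrow and far apart, and the log2 fold change was -0.52 ± 0.046 (adjusted p = 1.80e-07). Of the 50-base windows of its transcript, 49.0% occurred in no other gene, the lowest share of the family. Of its 100-base windows 78.0% occurred in no other gene, and the rest occurred in AC026461.1. How the authors counted reads that fit several genes is not given in the sources used here, so the MT1X value is uncertain by such reads. MT1H (79.6% unique), MT1G (79.8%), MT1M (85.4%), MT2A (89.8%), MT1E (90.0%), MT1F (93.9%) and MT1A (94.2%) also had 50-base windows found in other genes. Windows of MT2A occurred in MT1G among others, and only MT3 had no shared window.

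MT1H and MT1F had fold changes farther from 0, though differences between members were not tested. MT1H was at 69.0, 74.2, 66.5 and 71.1 CPM in CTRL and at 38.0, 36.8 and 45.0 CPM in DJL1. Its groups were far apart, with DJL1 replicate 3 the highest of its group. The mean went to 56.9% of CTRL, a log2 fold change of -0.81 ± 0.064 (adjusted p = 5.86e-08). MT1F was at 43.8, 43.9, 40.5 and 42.0 CPM in CTRL and at 24.5, 23.1 and 26.9 CPM in DJL1. The highest DJL1 library was again replicate 3, as for MT2A, MT1E, MT1G, MT1X and MT1H. The log2 fold change of MT1F was -0.78 ± 0.060 (adjusted p = 4.49e-08).

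The scarcer MT1M and MT1A had the lowest fold changes of the called members and the widest spread. MT1M was at 9.42, 8.25, 7.38 and 8.27 CPM in CTRL and at 3.65, 6.13 and 3.80 CPM in DJL1, with replicate 2 high among the DJL1 libraries. Its log2 fold change was -0.88 ± 0.16 (adjusted p = 2.06e-04). MT1A had 71, 78, 85 and 70 counts in CTRL and 16, 31 and 22 in DJL1, which made 1.14, 1.03, 1.37 and 1.06 CPM against 0.42, 0.88 and 0.59 CPM. The groups did not overlap, though the coefficient of variation was 37.3% in DJL1. The log2 fold change of MT1A was -0.87 ± 0.28 (adjusted p = 0.0184). Its call was lost with the gene length trend removed (-0.67, adjusted p = 0.0551), without CTRL replicate 3 (-0.77, adjusted p = 0.0594) and without DJL1 replicate 1 (-0.65, adjusted p = 0.0680), all by edgeR.

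MT3, the brain metallothionein, had 24, 15, 7 and 11 counts in CTRL and 18, 18 and 16 in DJL1. Scaled, these were 0.39, 0.20, 0.11 and 0.17 CPM against 0.47, 0.51 and 0.43 CPM. All DJL1 libraries were above all CTRL libraries, with CTRL replicate 1 close beneath them. The log2 fold change of 1.12 ± 0.48 was not called (adjusted p = 0.0621). Without CTRL replicate 1 it was called (1.55, adjusted p = 0.0178), as it was by limma-voom (1.26, adjusted p = 0.0246). With at most 24 counts in a library, a level this low is measured poorly.

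**Figure D2:**
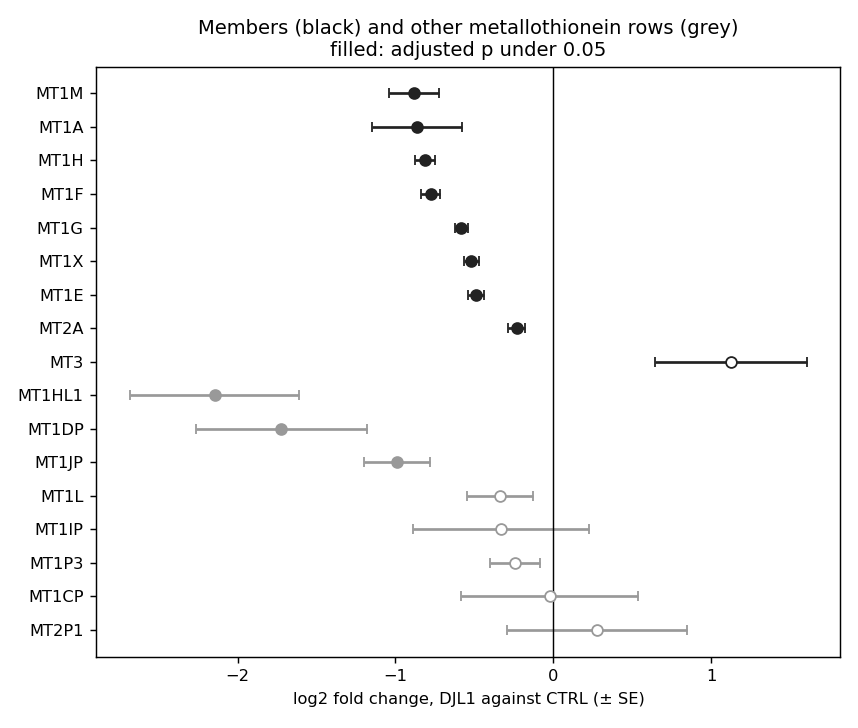
Log2 fold change of DJL1 against CTRL (horizontal axis) with its standard error for the 9 members in black and the 8 tested further metallothionein rows in grey, filled where the adjusted p is under 0.05. The called members run from -0.88 for MT1M to -0.23 for MT2A, and MT3 at 1.12 and the pseudogene row MT2P1 at 0.28, both not called, are right of 0.

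Per kilobase of transcript (396 to 425 bases in the members), MT1G at 290 ± 9.44 and MT2A at 289.5 ± 12.3 CPM per kb were the highest in CTRL cells, and their libraries overlapped. MT1E followed at 201.1 ± 3.11, above MT1X (186.1 ± 7.27) in every CTRL library. MT1X overlapped with MT1H (176.8 ± 8.25 CPM per kb). MT1F (100.1 ± 3.83), MT1M (20.9 ± 2.10), MT1A (2.90 ± 0.39) and MT3 (0.53 ± 0.29) came below in that order, each apart from the next. In DJL1 cells MT2A (246.8 ± 20.8 CPM per kb) stood above MT1G (193.6 ± 4.96) with no overlap. There MT1E (143.1 ± 11.6) and MT1X (129.9 ± 3.25) overlapped, MT1H (100.6 ± 11.2) was apart from MT1X, and at the bottom MT1A (1.595 ± 0.595) and MT3 (1.16 ± 0.10) overlapped. This order rests on counts of reads that could be placed, and the copies differ in how many of their bases are unique.

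Summed over the 9 members, the metallothionein mRNA pool was 519.0, 527.5, 487.6 and 511.7 CPM in CTRL and 339.8, 352.2 and 380.3 CPM in DJL1. The DJL1 mean of 357.4 ± 20.8 was 69.9% of the CTRL mean of 511.5 ± 17.1 CPM. The make-up of the pool also differed. MT2A gave 22.3 to 23.0% of it in CTRL and 26.6 to 28.3% in DJL1 libraries, a larger share of a smaller pool. MT1H went from 13.7 ± 0.34 to 11.2 ± 0.69% and MT1F from 8.32 ± 0.094 to 6.94 ± 0.35%, in both cases without overlap. MT1E (15.7 and 15.9%) and MT1X (14.7 and 14.7%) kept the same mean share within their SD. These shares add up to 100% by construction and were not tested.

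**Figure D3:**
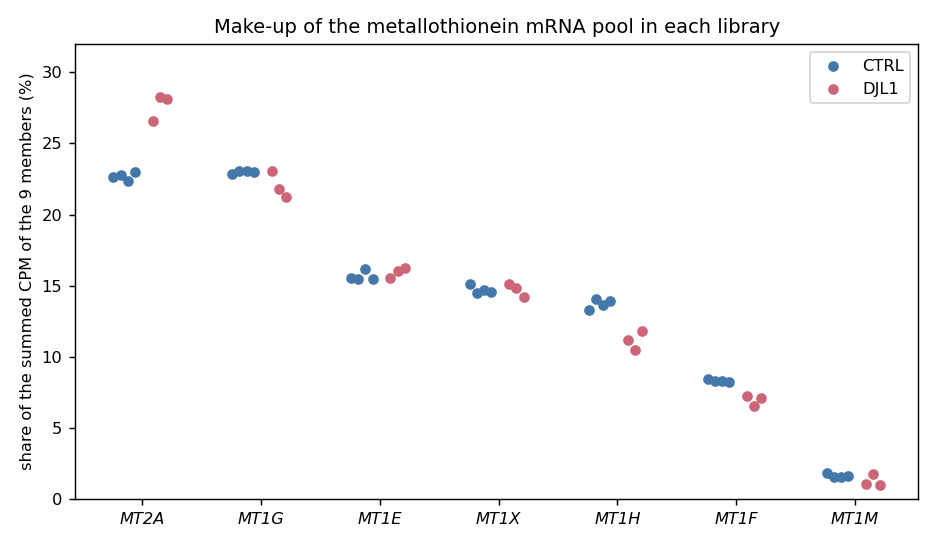
Share of each of the 7 more abundant members in the summed CPM of the 9 members (vertical axis, %), by library, CTRL in blue and DJL1 in red. MT2A is at most 23.0% in CTRL and at least 26.6% in DJL1 libraries, MT1H and MT1F are lower in all DJL1 libraries, and MT1E and MT1X overlap.

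A further 12 rows carry metallothionein symbols, mostly pseudogenes, and they held 1.57 to 1.72% of all metallothionein CPM in a library. Of the 8 that were tested, 3 were lower and 0 higher, beside 25.1 and 27.0% of all tested genes. MT1JP, a pseudogene inside the cluster, was at 1.61, 2.08, 1.75 and 1.89 CPM in CTRL and 0.94, 0.77 and 1.05 CPM in DJL1 (log2 fold change -0.99 ± 0.21, edgeR adjusted p = 9.40e-04). Some 50-base windows of the more abundant MT1E and MT1M occurred in MT1JP, so the MT1JP counts may include reads of these genes. MT1HL1, a copy of MT1H on chromosome 1, had 31, 40, 18 and 42 counts in CTRL and 3, 2 and 7 in DJL1 (-2.15 ± 0.54, edgeR adjusted p = 0.00326). Only 77.5% of its 50-base windows were found in no other gene and the rest occurred in MT1H, so its counts may include MT1H reads. MT1DP had 17 to 30 counts in CTRL and 2 to 5 in DJL1 libraries (-1.72 ± 0.54, edgeR adjusted p = 0.0142). Its call was lost with the gene length trend removed (-1.25, edgeR adjusted p = 0.0579) and with the GC content and length trend removed (-1.24, edgeR adjusted p = 0.0590).

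The other 5 tested rows were not called, with log2 fold changes of -0.34 for MT1L, -0.33 for MT1IP, -0.24 for MT1P3, -0.02 for MT1CP and 0.28 for MT2P1. MT1B, MT1P1 and MT1XP1 had too few counts for the test. MT4, known from stratified epithelia, had 0 counts in 6 libraries and 2 in DJL1 replicate 3, and a count of 0 allows up to 3 counts, or 0.039 to 0.086 CPM, counting error only. With all rows added, the summed level in DJL1 was still 69.9% of that in CTRL.

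The genes beside the cluster were mostly higher or not called. Of the 10 nearest tested coding genes on each side, 11 were higher and 2 lower, beside 27.0 and 25.1% of all tested genes. The lower ones were NUDT21 (-0.42 ± 0.043) and PSME3IP1 (-0.35 ± 0.042, chosen after its value was seen), and the median log2 fold change was 0.42. BBS2, a gene of the primary cilium and the nearest on the MT3 side, was at 13.8 ± 0.33 CPM in CTRL and 14.6 ± 0.73 in DJL1 (0.08 ± 0.070, edgeR adjusted p = 0.339). NUP93, a nuclear pore gene next to MT1X, was at 114.1 ± 0.58 and 112.5 ± 4.31 CPM (-0.02 ± 0.039, edgeR adjusted p = 0.698). Neither of the nearest genes was called, though NUP93 was called lower with the length trend removed (-0.14, edgeR adjusted p = 0.00962). Farther out, HERPUD1, a gene of the unfolded protein response, rose from 45.7 ± 2.93 to 102.9 ± 3.87 CPM (1.17 ± 0.052), and MMP2, a matrix protease gene, from 11.5 ± 0.16 to 21.4 ± 1.85 CPM (0.89 ± 0.072). Inside the cluster the long non-coding RNA LOC101927536, looked at after its values were seen, was at 1.47 ± 0.19 CPM in CTRL and 0.98 ± 0.34 in DJL1 (-0.58 ± 0.25, edgeR adjusted p = 0.0628). It was called lower without DJL1 replicate 3 (-0.91, edgeR adjusted p = 0.00691).

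**Figure D4:**
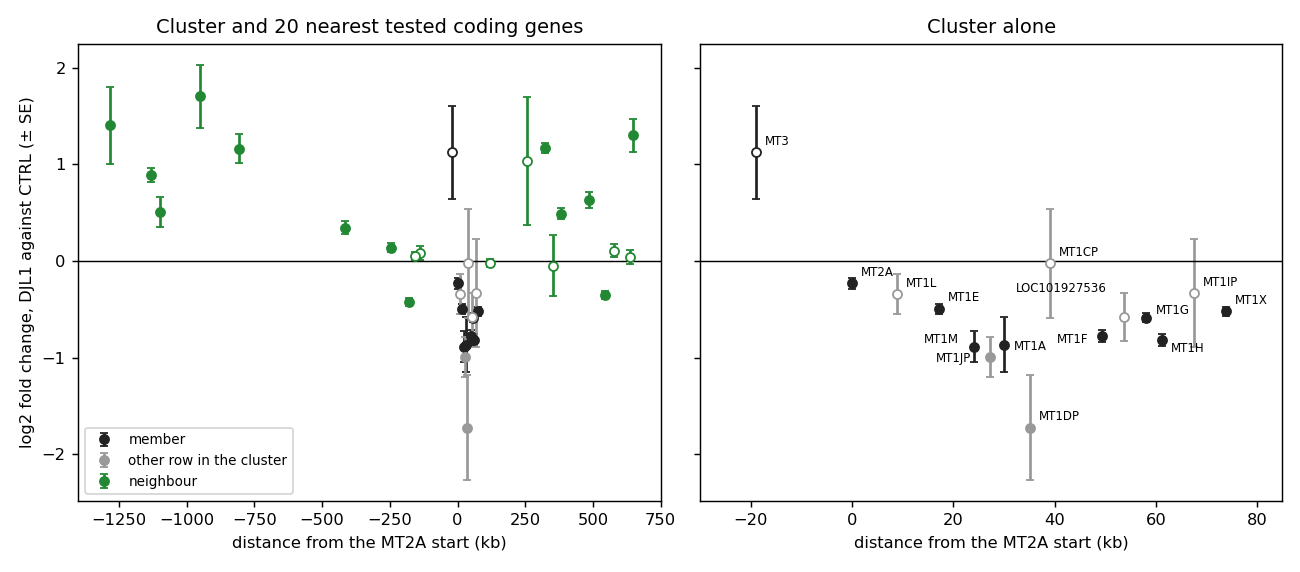
Log2 fold change of DJL1 against CTRL (vertical axis, ± SE) by distance from the MT2A start in kb, for the cluster with its 20 nearest tested coding genes on the left and for the cluster alone on the right, filled where the adjusted p is under 0.05. Tested rows of the cluster other than MT3 lie below 0, and of the 20 neighbours 11 are called higher and 2 lower.

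MTF1, the transcription factor that senses zinc and switches on metallothionein genes, was at 27.5, 25.5, 28.4 and 27.1 CPM in CTRL and 26.6, 23.0 and 23.6 CPM in DJL1. The groups overlapped through DJL1 replicate 1. The log2 fold change was -0.15 ± 0.065 (edgeR adjusted p = 0.0617). It was called lower in 6 of 18 alternatives, among them without CTRL replicate 2 (-0.18, adjusted p = 0.0455) and without DJL1 replicate 1 (-0.23, adjusted p = 0.00671). SLC30A1, the zinc exporter of the plasma membrane and another known target of MTF1, was at 84.0, 81.9, 86.0 and 80.0 CPM in CTRL and at 103, 101 and 99.5 CPM in DJL1. Its groups were far apart and in the opposite order to the metallothioneins (0.29 ± 0.041, edgeR adjusted p = 2.50e-05).

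Of 24 zinc transporter genes, the SLC30 exporters and the SLC39 importers, 23 were tested, 5 were higher and 8 lower, beside 27.0 and 25.1% of all tested genes, with a median log2 fold change of 0.01. SLC30 genes were on both sides, 5 higher and 4 lower. The higher were SLC30A1, SLC30A3, which loads zinc into vesicles (13.5 ± 0.19 to 20.5 ± 0.92 CPM), SLC30A10, known as a manganese exporter (0.98 ± 0.11 to 2.49 ± 0.43 CPM), and SLC30A4 and SLC30A8, both named after their values were seen (1.44 and 1.83 on the log2 scale). SLC30A9 fell from 78.8 ± 1.84 to 57.4 ± 6.76 CPM (-0.46 ± 0.063), and SLC30A2 (-0.36), SLC30A5 (-0.13) and SLC30A7 (-0.19), named after their values were seen, were also lower. SLC30A5 was near the threshold (adjusted p = 0.0484 by edgeR) and lost its call by limma-voom (-0.13, adjusted p = 0.0506), and without any of CTRL replicates 1 to 4 or without DJL1 replicate 3 (edgeR adjusted p = 0.0575 to 0.135), among others. SLC30A2 was not called with the replicate number as a block (edgeR adjusted p = 0.0847). The other 4 lower were SLC39 genes. SLC39A10, a zinc importer, was at 87.5 ± 1.41 and 85.96 ± 8.06 CPM and was not called (-0.02, edgeR adjusted p = 0.728). The count of lower calls varied with the fit. There were 2 with the replicate number as a block, 5 without CTRL replicate 1, 4 without CTRL replicate 4 and 5 with a minimum of 1 CPM in 3 libraries.

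Of 14 genes of the response to heavy metals and to oxidative or proteotoxic stress, SLC30A1 among them, 12 were higher and 1 lower, beside 27.0 and 25.1% of all tested genes, with a median log2 fold change of 0.46. HMOX1, heme oxygenase, was at 75.4, 67.8, 70.1 and 74.6 CPM in CTRL and 110.3, 132.0 and 112.0 CPM in DJL1 (0.71 ± 0.060, edgeR adjusted p = 1.03e-07). ATF3, a stress transcription factor, rose from 86.4 ± 1.44 to 215.8 ± 22.3 CPM (1.32 ± 0.054). SRXN1, which repairs oxidised peroxiredoxins, rose from 30.7 ± 0.29 to 43.98 ± 4.01 CPM, and DNAJB1, a co-chaperone, from 226.1 ± 31.9 to 859.5 ± 115.4 CPM. The inducible Hsp70 genes HSPA1A (2.37 ± 0.21), HSPA1B (2.36 ± 0.20) and HSPA6 (3.04 ± 0.35), chosen after their values were seen, had the largest log2 fold changes of the list. HSPA1A and HSPA1B are near-identical copies that can share reads, and with the replicate number as a block HSPA6 was not called (edgeR adjusted p = 0.0505). GCLC, for glutathione synthesis, was the 1 gene lower (-0.14 ± 0.043, edgeR adjusted p = 0.0144, named after its value was seen), and without CTRL replicate 3 it was not called (adjusted p = 0.0505).

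Among 20 copper and iron genes 19 were tested, 5 were higher and 7 lower, beside 27.0 and 25.1% of all tested genes, with a median of -0.07. SLC11A2, an importer of iron and other divalent metals, fell from 70.3 ± 0.58 to 48.1 ± 4.42 CPM (-0.55 ± 0.054), and SCO1, a copper chaperone of mitochondria, from 111.7 ± 2.44 to 84.3 ± 6.11 CPM (-0.40 ± 0.048). FTL, the ferritin light chain, rose by 0.40 ± 0.047 on the log2 scale and ATP7A, a copper exporter, by 0.71 ± 0.10. The other genes higher, named after their values were seen, were SLC40A1, the iron exporter (0.70), NCOA4, which delivers ferritin for breakdown (0.19), and TFRC, the transferrin receptor (0.15). TFRC was not called with the gene length trend removed (0.084, edgeR adjusted p = 0.0798) or with the GC content and length trend removed (0.080, edgeR adjusted p = 0.0722).

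Of 10 glucocorticoid response genes, a pathway known to induce metallothioneins, 8 were higher and 1 lower, beside 27.0 and 25.1% of all tested genes, with a median of 0.66. NR3C1, the glucocorticoid receptor, was at 13.6, 13.4, 15.1 and 14.3 CPM in CTRL and 32.7, 28.8 and 26.7 CPM in DJL1. All DJL1 libraries were above all CTRL libraries (1.06 ± 0.074, edgeR adjusted p = 1.68e-08). TSC22D3 rose from 107.7 ± 2.14 to 156.3 ± 7.34 CPM, CRISPLD2 from 13.6 ± 0.59 to 25.3 ± 2.09 and DUSP1, a phosphatase gene, from 35.7 ± 1.73 to 61.5 ± 7.43 CPM. FKBP5 was lower (-0.19 ± 0.046) and PER1 was not called (0.14 ± 0.075), both named after their values were seen. Without DJL1 replicate 3 PER1 was called higher (0.21, edgeR adjusted p = 0.0233), and it ran from 0.0088 to 0.21 with each library left out.

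**Figure D5:**
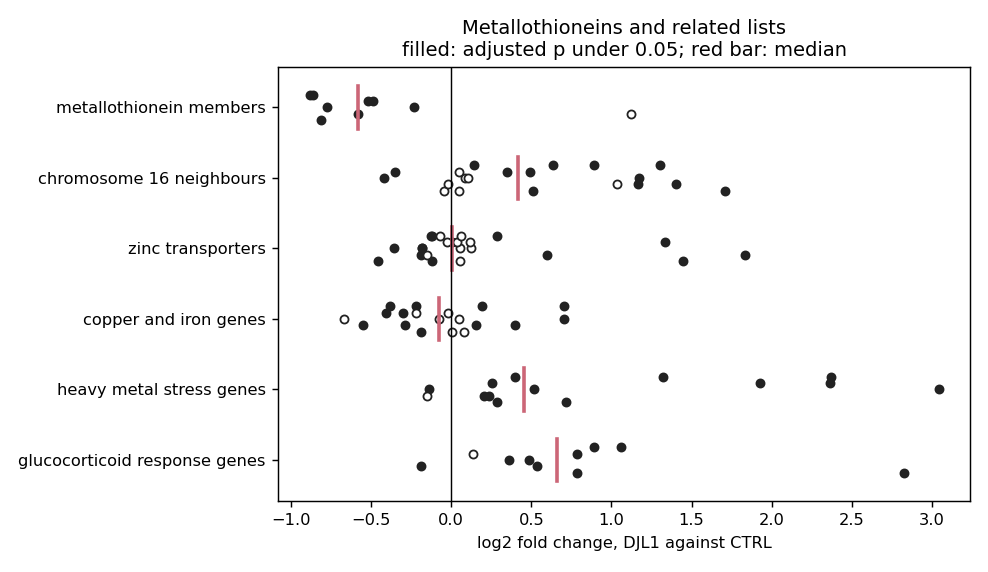
Log2 fold change of DJL1 against CTRL (horizontal axis) for each tested gene of the metallothionein members and 5 related lists, filled where the adjusted p is under 0.05, with the list median as a red bar. The medians run from -0.58 for the metallothioneins to 0.66 for the glucocorticoid response genes, and the zinc transporters centre near 0.

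Across the 7 libraries, the coding genes whose log2 CPM followed the summed metallothioneins most closely, of 12035 with at least 5 CPM in a group, were UQCR10 and NDUFA11, which encode subunits of the respiratory chain, PATL1, of mRNA decay, QARS1, a tRNA synthetase, and PDLIM7. Their root mean square differences from the metallothionein sum were 0.018, 0.022, 0.023, 0.024 and 0.025 on the log2 scale. UQCR10 was at 45.97, 45.4, 42.0 and 43.98 CPM in CTRL and 29.5, 31.1 and 32.6 CPM in DJL1, 70.1% of CTRL, close to the 69.9% of the sum. These genes were picked for that likeness out of many.

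The 6 pluripotency markers were expressed in both groups, and whether the cells were in the naive state was not tested. POU5F1, the pluripotency factor, was at 5324 ± 73.2 CPM in CTRL and 5354 ± 269.4 in DJL1 (0.01 ± 0.040, edgeR adjusted p = 0.879). The other 5 of 6 pluripotency markers were lower, among them NANOG (120.8 ± 1.36 to 85.2 ± 7.66 CPM), and of 7 naive markers 5 were higher and 2 lower, with KLF17 at 2.48 ± 0.64 and 9.36 ± 3.37 CPM. Of other cell types, the sums of trophectoderm, endoderm, neural and glial, and fibroblast markers were higher in every DJL1 library. Those of liver and yolk sac overlapped. Of all tested genes 27.0% were higher and 25.1% lower. Trophectoderm markers, 6 of 6 higher, summed to 11.4 to 14.8 CPM in CTRL and 37.3 to 47.9 in DJL1. Endoderm markers, 4 of 4 higher, summed to 4.95 to 6.33 and 15.9 to 20.1 CPM, and of 5 neural and glial markers, 3 higher, the sums were 3.60 to 5.04 and 12 to 13.8 CPM. S100B and AQP4, named after their values were seen, were not called. AQP4 was lower in all DJL1 libraries (0.39 ± 0.096 to 0.20 ± 0.033 CPM). Fibroblast markers, 5 of 7 tested and all 5 higher, summed to 488.6 to 502 and 760.7 to 879 CPM, but the defining DCN and LUM had at most 6 counts in a library. Markers of liver and yolk sac, tissues rich in metallothionein, had 1 of 3 tested genes higher and TTR at no more than 3 counts in any library, and summed to 0.90 to 1.42 CPM in CTRL and 1.04 to 1.38 in DJL1. The part of such cells in the metallothionein values was not tested.

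In the authors' deposited table of the same comparison 20199 genes are listed, with 8 of the 9 members and without MT3. The authors' deposited table has all 8 lower at an adjusted p under 0.05, from a log2 fold change of -0.22 for MT2A to -0.91 for MT1M. For MTF1 the authors' deposited table gives -0.13 with an adjusted p of 0.103.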

How the data were processed

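The authors deposited raw counts per gene symbol for 7 poly(A) RNA libraries, used here unchanged. Per the submitters' processing notes the tools included HISAT2 2.2.1, Trim Galore 0.4.0, Subread 1.5.0 and its featureCounts, with the builds hg38 and GRCh38. The kit is directional per the labels, but neither the strand setting nor the handling of multimapping reads is given in the sources used here. The authors' deposited comparison table gives, per the file headers, log2 fold changes and a p-value and adjusted p-value per gene. A deposited table of log values was not used, since no source used here names its base or transform.

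Groups were read from the sample titles. Genes passing edgeR's filterByExpr (minimum count 10, minimum total 15) were scaled by TMM and tested by edgeR 4.0.16 (glmQLFit with robust dispersion, design of group alone) in R 4.3.3, adjusting over all 26062 tested genes. Lengths, coding sequences and window matches used GENCODE 29 and Python 3.11.15. The coding sequences of members other than MT2A and MT1H are not reported here. Replicates differed by more than counting noise, so each was counted as its own library, which does not show that they were separate cultures. DJL1 libraries exceeded counting noise by more than CTRL libraries did, and the fit took the same spread for both groups. PCR copies mean that floors cover counting error only. Same-numbered libraries did not deviate together, but with so few libraries this cannot show whether they share a batch. The main fit has no block, and a block was tried as an alternative. The script was tested on simulated data.

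The members and lists were chosen with earlier results of these data known. Named genes were all members, other metallothionein rows, in each list up to 4 genes of smallest adjusted p with MTF1, SLC30A1, SLC39A10, HMOX1 and NR3C1, the nearest neighbour on each side and up to 3 neighbours of smallest adjusted p, the 5 genes most like the summed members, and POU5F1, NANOG and KLF17. Alternatives were DESeq2 1.42.0, limma-voom (limma 3.58.1), other scaling factors, other filters, thinned counts, removal of the gene length trend, the replicate number as a block and each library left out. Removal of the GC content and length trend together was chosen after seeing the data.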

Additional observations from a re-analysis of the deposited data

How the results depend on the processing

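Over 18 alternatives the number of members called lower was 7 or 8, and the log2 ratio of the summed level ran from -0.56 to -0.48 over 10. The fall of MT1E, MT1F, MT1G, MT1H, MT1M, MT1X and MT2A was called in all 18, with MT2A between -0.30 and -0.18. The number of members called higher was 0, and 1 (MT3) by limma-voom, with thinned counts, with the gene length trend removed and with the GC content and length trend removed, and 0 to 1 when each library was left out. Zinc transporters called lower went from 8 to 5 with at least 1 CPM in 3 libraries, and to 4 to 7 with each library left out. Heavy metal stress genes called lower went from 1 to 2 with relative log expression factors, with no filter, with the length trend and with the GC content and length trend removed, and to 0 to 2 with each library left out. The cause was not tested.

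With the replicate number as a block (replicate block, replicates 1 to 3), 2 zinc transporters and 0 heavy metal stress genes were called lower and 8 members stayed lower. Over all genes the block gave 5995 higher and 5573 lower. Same-numbered libraries correlated by 0.017, -0.11 and -0.11 in their deviations over 15808 genes. The highest value was that of CTRL replicate 2 with DJL1 replicate 3 (0.14). With so few libraries, each centred on its group mean, these values cannot show whether same-numbered libraries share a batch.

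Some values not called in the main fit changed sign in other fits, and none was called there. MT1CP was at 0.50 without the length trend, at 0.51 without the GC content and length trend and at -0.46 to 0.30 with each library left out. MT1IP was at 0.031, 0.034 and -0.86 to 0.18 in the same fits, and MT1P3 at 0.27 and 0.29 in the trend fits. MT2P1 was at -0.22 by limma-voom, -0.056 with the block and -0.98 to 0.74 with each library left out. With at least 1 CPM in 3 libraries SLC39A10 was at 0.0054 and NUP93 at 0.010, and SLC39A10 ran from -0.094 to 0.035 with each library left out. POU5F1 was at -0.0013 by DESeq2 and with relative log expression factors, -0.023 with no filter, -0.033 and -0.057 in the trend fits, and -0.042 to 0.026 with each library left out. The trend fits used the 76.3% of tested genes with a length and GC content. Depth limits MT1A, MT3 and the pseudogene rows.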
